A study of Homo sapiens with 12 samples.

Results

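The mTOR kinase, its complex subunits, its activator and its best-known substrates in translation were followed at the mRNA level in melanoma cells given etoposide with or without rapamycin. The members were 10 genes chosen by symbol, MTOR, RPTOR, RICTOR, MLST8, RHEB, RPS6KB1, RPS6KB2, EIF4EBP1, EIF4EBP2 and EIF4E, out of 58307 named rows of the count table, and each symbol matched 1 row. The 12 libraries came from A375 and SK-MEL-28, human malignant melanoma lines from a cell repository, each treated with etoposide, a topoisomerase II inhibitor, or with etoposide and rapamycin, with 3 libraries in each of the 4 groups. Every library therefore carried etoposide, and neither untreated cells nor cells with rapamycin alone were among the samples used here. Doses and times of treatment are not given in the labels. The study describes the 3 libraries of a group as biological replicates, and since the labels do not say whether they were separate cultures, p-values measure only the spread between these libraries. The question was how adding rapamycin, an mTOR inhibitor used by the study to induce autophagy, changed gene expression under etoposide.

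mTOR is a protein kinase that works in a pair of complexes. In mTORC1 it is joined by RPTOR, which recruits substrates, and by MLST8, and in mTORC2 by RICTOR and MLST8. The small GTPase RHEB activates mTORC1 at the lysosome. mTORC1 phosphorylates the S6 kinases (RPS6KB1 and RPS6KB2) and the 4E-binding proteins (EIF4EBP1 and EIF4EBP2). Unphosphorylated 4E-binding proteins hold the cap-binding factor eIF4E (EIF4E) away from the initiation complex, so mTORC1 activity favours translation. Rapamycin bound to FKBP12 inhibits mTORC1, and it does so on the protein, whereas the values here are mRNA levels.

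Each library held 28189501 to 32499337 counts in named rows, and all 10 genes were counted at 870 or more in every library. Levels are CPM, counts scaled to a common library total after TMM normalization, so each is a share of a library's mRNA, and fewer cells of a type and less RNA per cell cannot be told apart. A gene is called when its p, from the quasi-likelihood test of edgeR and adjusted by Benjamini-Hochberg across every gene tested, is under 0.05. Melanoma identity was read from lineage genes. SOX10 lay between 166 and 579 CPM, S100B between 56.7 and 106 CPM and MITF between 12.1 and 29.7 CPM over the 12 libraries, whereas the pigment genes were low in both lines, with PMEL at 2.99 CPM or less, DCT at 2.16 or less, MLANA at 1.37 or less and TYR at 0.196 or less. MLANA, PMEL and TYR overlapped between the libraries labelled A375 and those labelled SK-MEL-28. DCT was 0.202 to 0.824 CPM in the first and 1.27 to 2.16 CPM in the second. The identity of the 2 lines rests on the labels and was not tested further, which bears on each comparison between them. All 8 lineage genes had a count in each etoposide group and 7 of 8 in each rapamycin group. Their summed level overlapped between the treatments, at 710 to 836 CPM with etoposide and 589 to 855 with rapamycin added in A375, and at 510 to 635 and 381 to 604 CPM in SK-MEL-28. SOX10 and S100A1 made up most of that sum, and single lineage genes did separate. MITF, the melanocyte regulator, was lower with rapamycin added without overlap in both lines, at 18.1 to 20.9 CPM and 12.1 to 14.2 in A375 and at 26.5 to 29.7 and 22.9 or less in SK-MEL-28. S100B was lower without overlap in A375, at 79.0 to 94.1 and 56.7 to 59.6 CPM, and overlapped in SK-MEL-28. The treatments did not overlap, in either direction, for 42.6% of all genes tested in A375 and 35.9% in SK-MEL-28. Of the lists for other cell types, the 4 fibroblast genes summed to 17.4 to 22.4 CPM with etoposide and 13.2 to 13.5 with rapamycin added in A375, and to 31.2 to 39.1 and 21.2 to 24.8 CPM in SK-MEL-28. The 3 endothelial genes summed to 3.48 to 9.36 CPM, and were lower with rapamycin added in each line without overlap. The 4 leukocyte genes summed to 52.3 CPM or less, mostly from CD68, with PTPRC at 0.632 CPM or less and CD3E at 0 in some libraries, and the 4 keratinocyte genes to 48.0 to 72.7 CPM, mostly from KRT10, with KRT5 and KRT1 at 0 in some libraries. The CD68 row shares its locus identifier with that of EIF4A1, so its counts were not shown to be separate from those of that gene. The part of these marker levels in the results below was not tested.

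With rapamycin added, the changes were small. In A375, EIF4E, EIF4EBP1 and EIF4EBP2 fell and RPTOR rose, so 4 of 10 genes were called, where 28.1% of all 18844 genes tested were called, 14.3% higher and 13.8% lower. None of the 4 passed a 1.5-fold change, a size that 5.89% of all genes passed together with the adjusted p, and 5 of the 10 had an unadjusted p under 0.05. In SK-MEL-28 only EIF4E was called, 1 of 10, where 19.0% of 18897 genes were called, 8.83% higher and 10.1% lower. There 4 of the 10 had an unadjusted p under 0.05, and none passed 1.5-fold, against 4.99% of all genes. DESeq2 called 4 of the 10 in A375 and 2 in SK-MEL-28, none of them past 1.5-fold. The shares of all genes by DESeq2 and at an unadjusted p under 0.05 are not given here, so nothing is read from the counts by these rules. The median log2 fold change of the 10 genes was -0.11 in A375, beside -0.0051 over all genes, and -0.11 in SK-MEL-28, beside 0.0053. The 2 treatments did not overlap for 7 of the 10 in A375, beside 42.6% of all genes, and for 2 of the 10 in SK-MEL-28, beside 35.9%. The sign of the change was the same in both lines for 5 of the 10.

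**Figure D1:**
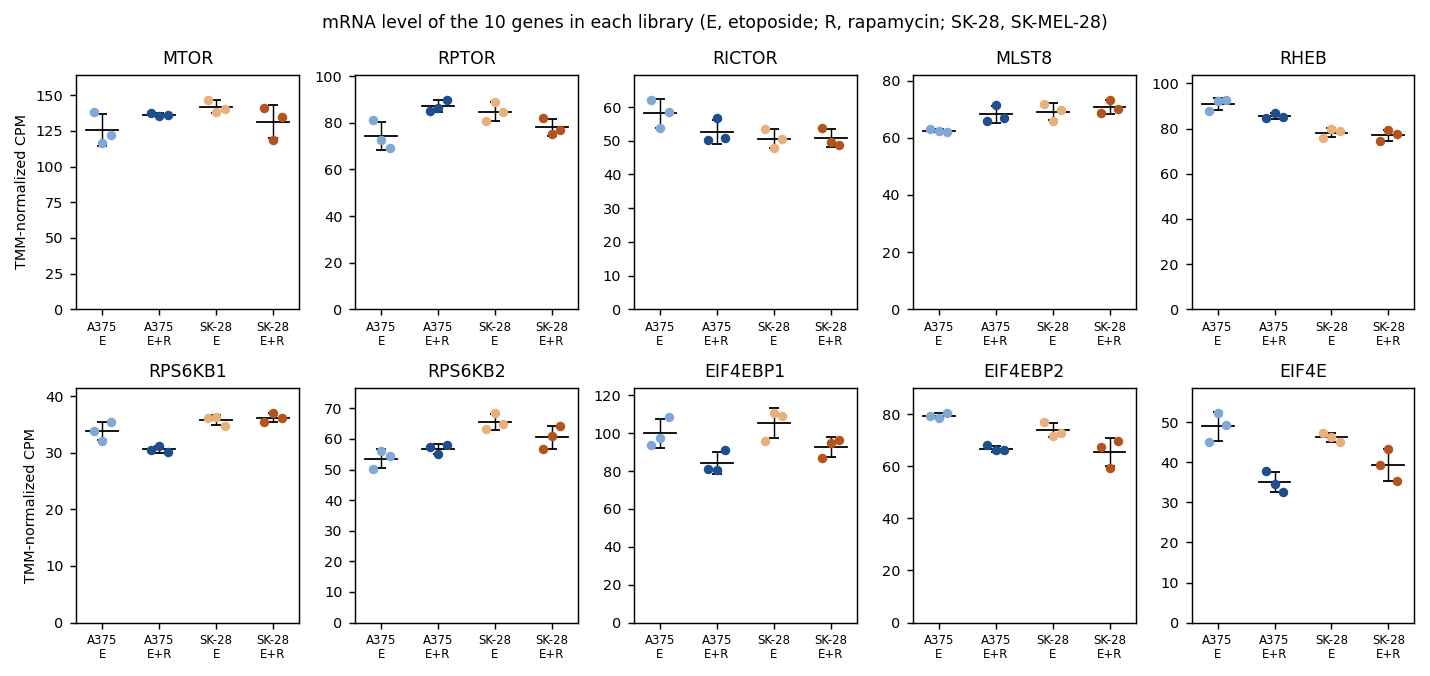
TMM-normalized CPM (vertical axes, from 0) of each of the 10 genes in the 12 libraries, by cell line and treatment (E, etoposide; E+R, etoposide + rapamycin). Points are libraries, horizontal lines means and bars SD (n = 3). EIF4E was lower with rapamycin added in both lines without overlap, whereas the levels of MTOR overlapped between the treatments in both.

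**Figure D2:**
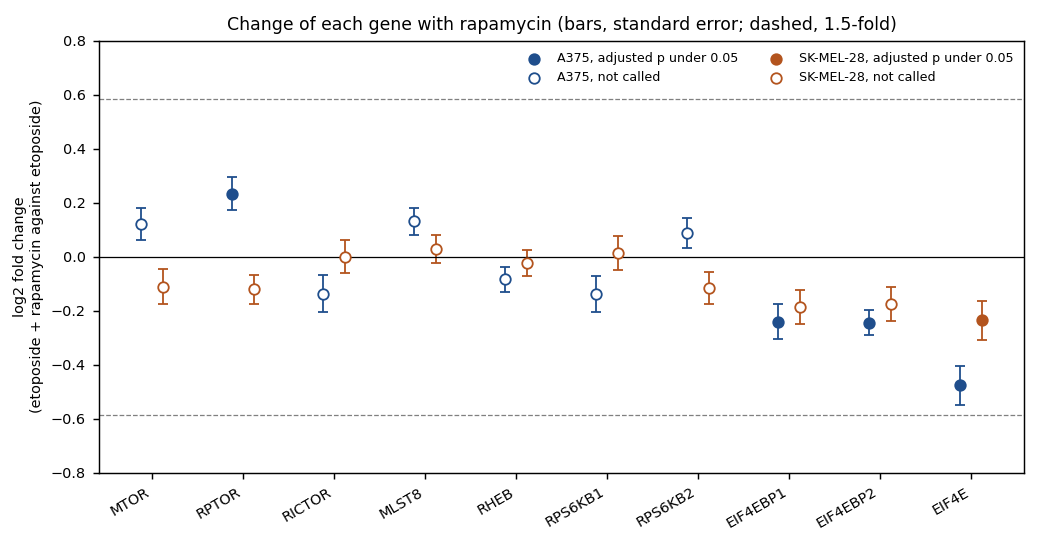
Log2 fold change of each gene, etoposide + rapamycin against etoposide, in A375 (blue) and SK-MEL-28 (orange), with standard errors as bars. Filled points have an adjusted p under 0.05 and the dashed lines mark a 1.5-fold change, which no gene reached. EIF4E lay lowest in each line, and RPTOR lay above 0 in A375 and below it in SK-MEL-28.

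The genes differed in level, compared per kilobase of exon as annotated in GENCODE release 44. The length is that of the exons of all annotated transcripts of a gene together, 880 bases for EIF4EBP1 and 4360 for MLST8. It can exceed the length of a single mRNA, so the order depends on the annotation as well as on the counts. In A375 with etoposide, EIF4EBP1 was the highest at 113 ± 8.71 CPM per kilobase (SD, n = 3), followed by RHEB at 25.8 ± 0.743 and MLST8 at 14.3 ± 0.0932. EIF4EBP2 (10.6 ± 0.128), EIF4E (9.85 ± 0.734), MTOR (9.41 ± 0.848) and RPS6KB2 (9.22 ± 0.519 CPM per kilobase) came next, and each of these overlapped its neighbour in the order. RPTOR stood at 7.22 ± 0.598 CPM per kilobase, and RPS6KB1 (4.39 ± 0.210) and RICTOR (4.32 ± 0.318), which overlapped, were the lowest. EIF4EBP1, RHEB and MLST8 held the first 3 places and RPS6KB1 and RICTOR the last 2 in all 4 groups. EIF4E moved from place 5 of 10 to place 8 in A375 when rapamycin was added, with 7.05 ± 0.517 CPM per kilobase there. Place 7 was held by EIF4E in both SK-MEL-28 groups.

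EIF4E had the largest log2 fold change of the 10 genes in each line. The gene lies on chromosome 4 from 98879276 to 98929133 on the minus strand (GRCh38) and encodes the factor that binds the mRNA cap. It measured 45.1, 52.4 and 49.5 CPM in the 3 A375 etoposide libraries and 37.8, 34.7 and 32.7 CPM with rapamycin added. All 3 rapamycin libraries lay below all 3 etoposide libraries. EIF4E fell by 28.2% in A375, a log2 fold change of -0.48 (SE 0.073, adjusted p = 0.000458). In SK-MEL-28 it measured 47.2, 46.4 and 45.2 CPM with etoposide and 39.4, 43.4 and 35.3 CPM with rapamycin added. The groups did not overlap there either, and the rapamycin libraries were spread more widely. EIF4E fell by 15.1% in SK-MEL-28, a log2 fold change of -0.24 (SE 0.074, adjusted p = 0.0405). This call was lost when etoposide replicate 1 (adjusted p = 0.109), 2 (0.0908) or 3 (0.0867) or rapamycin replicate 1 (0.0955) or 3 (0.179) was left out, and with a filter of 1 count, which tests more genes (0.108). The response in SK-MEL-28 minus that in A375 was 0.25 on the log2 scale (SE 0.11, adjusted p = 0.206), so the fall was not shown to differ between the lines.

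The 250 bases before the RefSeq start of EIF4E (GRCh38.p14), EIF4EBP2 and RPTOR are shown because these are called genes, in A375, with an entry in the promoter table used. EIF4E and EIF4EBP2 fell there and RPTOR rose. Capitals mark the E-box letters CACGTG, which read the same on both strands and are the core bound by MYC and related factors.
EIF4E, chr4:98929134-98929383, minus strand: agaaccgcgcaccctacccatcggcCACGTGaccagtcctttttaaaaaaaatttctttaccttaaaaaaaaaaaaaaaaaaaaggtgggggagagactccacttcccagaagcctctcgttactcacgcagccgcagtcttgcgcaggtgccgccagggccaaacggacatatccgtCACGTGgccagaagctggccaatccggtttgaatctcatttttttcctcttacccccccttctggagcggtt
EIF4EBP2, chr10:70403895-70404144, plus strand: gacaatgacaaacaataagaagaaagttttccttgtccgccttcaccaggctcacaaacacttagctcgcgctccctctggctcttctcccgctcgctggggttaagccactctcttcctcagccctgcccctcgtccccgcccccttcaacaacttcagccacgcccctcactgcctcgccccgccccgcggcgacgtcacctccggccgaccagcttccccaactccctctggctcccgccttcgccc
RPTOR, chr17:80544588-80544837, plus strand: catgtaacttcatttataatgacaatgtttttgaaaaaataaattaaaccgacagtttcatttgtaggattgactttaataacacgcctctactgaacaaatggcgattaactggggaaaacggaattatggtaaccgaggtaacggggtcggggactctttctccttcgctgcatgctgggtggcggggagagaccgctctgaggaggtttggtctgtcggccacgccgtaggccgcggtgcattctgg
The letters CACGTG occur at 2 places in the EIF4E window, beginning 225 and 72 bases before the start, and at none in those of EIF4EBP2 and RPTOR. Of the 8 members with an entry, searched over 300 bases that end 50 after the start, EIF4E was the 1 that held them. Among all 35116 promoters of that length 7.26% held the letters and 0.664% held them 2 or more times. A match of letters is a description of the window and not a measured binding site.

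EIF4EBP1 and EIF4EBP2, the inhibitors that bind eIF4E, were lower with rapamycin added in A375. EIF4EBP1 (chromosome 8, 38030534 to 38060365, plus strand) measured 93.6, 97.6 and 108 CPM in the A375 etoposide libraries and 81.2, 80.3 and 91.0 CPM with rapamycin added. The groups did not overlap, with 2.61 CPM between the highest rapamycin library and the lowest etoposide library. EIF4EBP1 fell by 15.4% in A375 (log2 fold change -0.24, SE 0.065, adjusted p = 0.0146). The call was lost without etoposide replicate 3 (adjusted p = 0.0740), rapamycin replicate 1 (0.0705) or rapamycin replicate 2 (0.0684), and with the filter of 1 count (0.0600). In SK-MEL-28 the same gene measured 96.1, 111 and 109 CPM with etoposide and 86.7, 94.8 and 96.5 CPM with rapamycin added. The highest rapamycin library lay just above the lowest etoposide library, and the change was not called, with a log2 fold change of -0.19 (SE 0.064, adjusted p = 0.0618). EIF4EBP1 was called there without etoposide replicate 1 (adjusted p = 0.0125), with DESeq2 (0.0319), with library totals in place of TMM (0.0288) and with a filter of 10 counts in every library (0.0474). The difference between the lines was 0.064 on the log2 scale (SE 0.10, adjusted p = 0.785).

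EIF4EBP2 (chromosome 10, 70404145 to 70428618, plus strand) had the closest replicates among the called genes in A375, at 79.3, 78.6 and 80.5 CPM with etoposide and 68.1, 66.1 and 66.2 CPM with rapamycin added. A gap of 10.5 CPM separated the groups. EIF4EBP2 fell by 15.6% (log2 fold change -0.24, SE 0.046, adjusted p = 0.00172), and the call held when any library was left out. In SK-MEL-28 it measured 77.0, 71.8 and 72.8 CPM with etoposide and 67.6, 59.4 and 69.7 CPM with rapamycin added. These groups did not overlap, and the log2 fold change of -0.17 was not called (SE 0.063, adjusted p = 0.0729). It was called with library totals (adjusted p = 0.0357) and in a joint fit of all 12 libraries (0.0462). The difference between the lines was 0.078 (SE 0.081, adjusted p = 0.653).

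The balance of the inhibitors against EIF4E was read within each library as a log2 ratio of counts, which needs no scaling between libraries and was not tested. EIF4EBP2 to EIF4E stood at 0.81, 0.59 and 0.70 in the A375 etoposide libraries and at 0.85, 0.93 and 1.02 with rapamycin added. The groups did not overlap, and the mean rose from 0.70 ± 0.11 to 0.93 ± 0.084 (SD, n = 3). In SK-MEL-28 this ratio averaged 0.68 ± 0.039 with etoposide and 0.74 ± 0.27 with rapamycin added, with overlap. EIF4EBP1 to EIF4E differed by 0.24 in A375 and 0.056 in SK-MEL-28 on the log2 scale, and its groups overlapped in both lines.

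Among the complex subunits, RPTOR was the gene called for a response that differed between the lines. RPTOR, the substrate-recruiting subunit of mTORC1, lies on chromosome 17 from 80544819 to 80966371 on the plus strand. It measured 81.2, 72.5 and 69.3 CPM in the A375 etoposide libraries and 85.2, 86.1 and 89.9 CPM with rapamycin added. Every rapamycin library was above every etoposide library, and etoposide replicate 1 was nearest to them. RPTOR rose by 17.5% in A375 (log2 fold change 0.23, SE 0.061, adjusted p = 0.0127), and the call was lost without etoposide replicate 3 (0.0610) or rapamycin replicate 3 (adjusted p = 0.0630). In SK-MEL-28 it measured 80.6, 88.9 and 84.7 CPM with etoposide and 82.1, 75.3 and 76.7 CPM with rapamycin added. These groups overlapped, with a log2 fold change of -0.12 (SE 0.055, adjusted p = 0.149).

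The response of RPTOR in SK-MEL-28 minus that in A375 was -0.35 on the log2 scale (SE 0.086, adjusted p = 0.0270). It was the 1 member of 10 called for a difference between the lines, where 5.62% of 20101 genes were called, 2.66% with a higher response in SK-MEL-28 and 2.97% with a lower response, and it did not pass 1.5-fold, as 1.62% of all genes did. DESeq2 called 1 of the 10 as well, and 4 had an unadjusted p under 0.05, with no share of all genes given for either count. The call was lost with the filter of 1 count (adjusted p = 0.0541) and in 7 of 12 fits that left out a library. Those were A375 etoposide replicate 2 (adjusted p = 0.0624) and 3 (0.0697), A375 rapamycin replicate 3 (0.0821), SK-MEL-28 etoposide replicate 2 (0.0777) and 3 (0.0602), and SK-MEL-28 rapamycin replicate 2 (0.0712) and 3 (0.0631). The value stayed between -0.43 and -0.31 in all 12.

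MTOR, the kinase shared by both complexes, was not called in either line. The gene (chromosome 1, 11106535 to 11262556, minus strand) measured 139, 117 and 122 CPM in the A375 etoposide libraries and 137, 135 and 136 CPM with rapamycin added. Etoposide replicate 1 was above all of the rapamycin libraries and the other two were below them. The log2 fold change was 0.12 (SE 0.060, adjusted p = 0.156), and without that replicate it was 0.20 and was called (adjusted p = 0.00555). In SK-MEL-28 MTOR measured 147, 138 and 141 CPM with etoposide and 141, 119 and 135 CPM with rapamycin added, with overlap and a log2 fold change of -0.11 (SE 0.065, adjusted p = 0.263). The response in SK-MEL-28 minus that in A375 was -0.22 (SE 0.093, adjusted p = 0.178), and -0.31 without A375 etoposide replicate 1, when it was called (adjusted p = 0.0385).

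RICTOR and MLST8 did not pass the test in either line. RICTOR, the defining subunit of mTORC2 (chromosome 5, 38937920 to 39074402, minus strand), measured 62.2, 53.7 and 58.5 CPM in the A375 etoposide libraries and 50.3, 56.7 and 50.9 CPM with rapamycin added. The groups overlapped through 1 library of each, and the log2 fold change was -0.14 (SE 0.068, adjusted p = 0.158). In SK-MEL-28 it measured 53.5, 47.8 and 50.5 CPM with etoposide and 53.8, 49.7 and 48.7 CPM with rapamycin added, a log2 fold change of 0.00016 (SE 0.062, adjusted p = 0.999). RICTOR shares 229 exonic bases, 1.70% of its own, with OSMR, a cytokine receptor gene on the opposite strand. OSMR had log2 fold changes of -0.61 in A375 (adjusted p = 1.29e-06) and -0.68 in SK-MEL-28 (adjusted p = 2.71e-05), and no strand setting is given in the sources used here, so reads in the shared bases cannot be assigned between them.

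MLST8, the subunit common to both complexes (chromosome 16, 2204248 to 2209453, plus strand), measured 63.0, 62.5 and 62.2 CPM in the A375 etoposide libraries and 66.0, 71.6 and 67.1 CPM with rapamycin added. The groups did not overlap, and the log2 fold change of 0.13 was not called (SE 0.051, adjusted p = 0.0757). In SK-MEL-28 MLST8 lay between 66.0 and 71.9 CPM with etoposide and between 68.7 and 73.3 CPM with rapamycin added, with a log2 fold change of 0.027 (SE 0.052, adjusted p = 0.776).

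The mTORC1 subunit was set against the mTORC2 subunit within each library as a log2 ratio of counts, without a test. RPTOR to RICTOR stood at 0.38, 0.43 and 0.24 in the A375 etoposide libraries and at 0.76, 0.60 and 0.82 with rapamycin added. The groups did not overlap, and the mean moved from 0.35 ± 0.099 to 0.73 ± 0.11 (SD, n = 3). In SK-MEL-28 it stood at 0.59, 0.89 and 0.75 with etoposide and at 0.61, 0.60 and 0.66 with rapamycin added. The SK-MEL-28 groups overlapped, with means of 0.74 ± 0.15 and 0.62 ± 0.030.

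**Figure D3:**
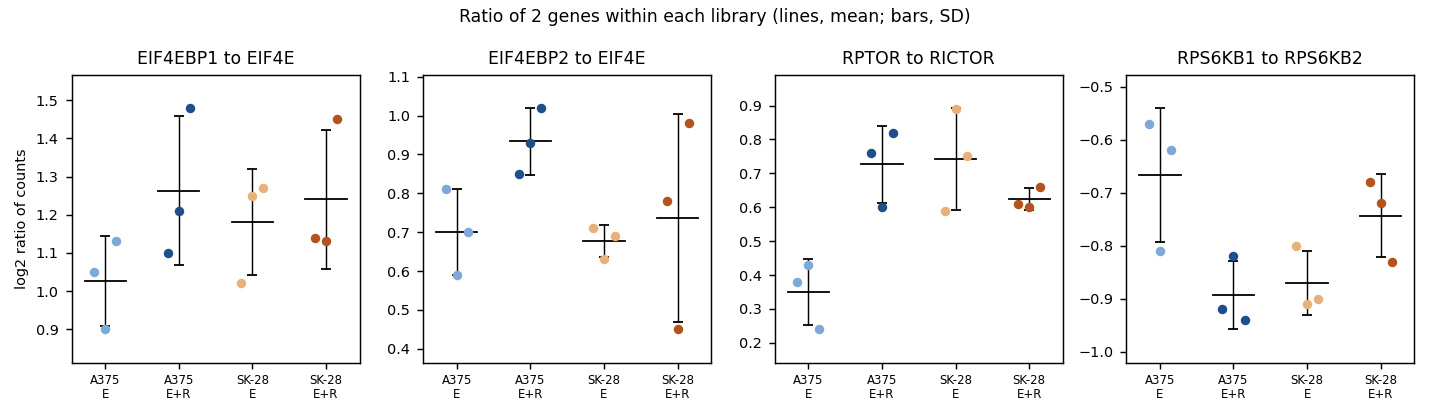
Log2 ratio of the counts of 2 genes within each library (vertical axes, each on its own scale and not starting at 0), by cell line and treatment. Points are libraries, horizontal lines means and bars SD (n = 3). RPTOR to RICTOR was 0.35 in A375 with etoposide and 0.73 with rapamycin added, and its SK-MEL-28 groups overlapped.

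RHEB, the GTPase that activates mTORC1 (chromosome 7, 151466012 to 151520120, minus strand), measured 88.0, 92.2 and 92.8 CPM in the A375 etoposide libraries and 84.7, 86.9 and 85.0 CPM with rapamycin added. These groups did not overlap, and the log2 fold change of -0.08 was not called (SE 0.046, adjusted p = 0.200). In SK-MEL-28 the groups overlapped, at 75.8 to 79.7 CPM with etoposide and 74.5 to 79.3 CPM with rapamycin added, and the log2 fold change was -0.02 (SE 0.048, adjusted p = 0.805).

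Neither S6 kinase gene was called with rapamycin. RPS6KB1, which encodes S6 kinase 1 (chromosome 17, 59893046 to 59950574, plus strand), measured 33.9, 32.1 and 35.4 CPM in the A375 etoposide libraries and 30.4, 31.2 and 30.1 CPM with rapamycin added. Its groups did not overlap, and the log2 fold change was -0.14 (SE 0.068, adjusted p = 0.155). In SK-MEL-28 RPS6KB1 lay between 34.8 and 37.0 CPM in all 6 libraries, with a log2 fold change of 0.013 (SE 0.062, adjusted p = 0.915). RPS6KB2, which encodes S6 kinase 2 (chromosome 11, 67428460 to 67435401, plus strand), measured 50.3, 56.2 and 54.4 CPM with etoposide and 57.4, 55.0 and 57.9 CPM with rapamycin added in A375. Its groups overlapped there, with a log2 fold change of 0.09 (SE 0.057, adjusted p = 0.281). They overlapped in SK-MEL-28 too, at 63.2 to 68.5 and 56.7 to 64.2 CPM, with a log2 fold change of -0.12 (SE 0.059, adjusted p = 0.198). The log2 ratio of RPS6KB1 to RPS6KB2 averaged -0.66 ± 0.12 in A375 with etoposide and -0.89 ± 0.067 with rapamycin added, without overlap, and -0.87 ± 0.061 and -0.74 ± 0.080 in SK-MEL-28, with overlap (SD, n = 3).

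Between the lines under etoposide alone, 2 of the 10 genes were called higher in SK-MEL-28, where 15.2% of 19025 genes were, and 2 lower, where 16.5% were. These are 4 of 10, where 31.7% of all genes were called, and none passed 1.5-fold, as 13.0% of all genes did. DESeq2 called 4, and 6 had an unadjusted p under 0.05, again with no share of all genes given for either count. The lines did not overlap for 5 of the 10, beside 44.6% of all genes. RPS6KB2 was higher in SK-MEL-28, by 0.29 on the log2 scale (SE 0.063, adjusted p = 0.00340), with all 3 libraries at 63.2 CPM or above against 56.2 or below in A375. RHEB was lower in SK-MEL-28 by the same rule, with a log2 difference of -0.22 (SE 0.053, adjusted p = 0.00694) and 79.7 CPM or below against 88.0 or above. Both calls held when any library was left out.

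RPTOR was higher in SK-MEL-28 by 0.19 on the log2 scale (SE 0.068, adjusted p = 0.0488), although the lines overlapped. That call was lost without A375 etoposide replicate 2 (adjusted p = 0.142) or 3 (0.194), or SK-MEL-28 etoposide replicate 2 (0.151) or 3 (0.105), and with the filter of 1 count (0.115). RICTOR was lower in SK-MEL-28, with a log2 difference of -0.20 (SE 0.070, adjusted p = 0.0469). OSMR, which shares bases with it, was higher as a whole gene, by 0.44 (adjusted p = 2.90e-05), and the shared bases were not measured apart. The RICTOR call was lost without A375 etoposide replicate 1 (adjusted p = 0.153) or 3 (0.106), or SK-MEL-28 etoposide replicate 2 (0.182) or 3 (0.127). It was also lost with DESeq2 (adjusted p = 0.0781), RLE size factors (0.0551), library totals (0.0562) and the filter of 1 count (0.126). MTOR was 0.17 higher in SK-MEL-28 and missed the threshold (SE 0.064, adjusted p = 0.0557), and it passed without A375 etoposide replicate 1 (adjusted p = 0.00595), with DESeq2 (0.0319) and with the filter of 10 counts (0.0475). MLST8 stood 0.15 higher (adjusted p = 0.0687), and passed without SK-MEL-28 etoposide replicate 2 (adjusted p = 0.0494) and in the joint fit (0.0418). EIF4E, EIF4EBP1, EIF4EBP2 and RPS6KB1 had log2 differences between -0.10 and 0.08 and were not called.

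Around these members, 62 other genes of the pathway were counted. In A375 14 of them rose and 11 fell, 25 of 62 or 40.3%, beside 28.1% of all genes (14.3% higher and 13.8% lower), and 3 passed 1.5-fold, as 5.89% of all genes did. In SK-MEL-28 8 rose and 4 fell, 12 of 62 or 19.4%, beside 19.0% of all genes (8.83% higher and 10.1% lower), and 1 passed 1.5-fold, as 4.99% did. Their median log2 fold change was -0.022 in the first line and 0.010 in the second. In the same direction 9 of 62, or 14.5%, were called in both lines, 7 higher and 2 lower, beside 10.8% of the 18140 genes tested in both (5.26% higher and 5.57% lower). Of the 62 genes 0 were called in opposite directions by edgeR, beside 0.436% of all. With DESeq2 EIF4G1, the scaffold that binds eIF4E, was called higher in A375 (log2 fold change 0.14, adjusted p = 0.0256). It was called lower in SK-MEL-28 with DESeq2 (-0.11, adjusted p = 0.0148). The groups by role that follow are small and are given as counts beside these shares, with nothing particular to a group read from them.

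The other mTORC1 substrates and S6 kinase targets numbered 12. In A375 6 of them rose and 2 fell, beside 14.3% and 13.8% of all genes, and in SK-MEL-28 4 rose and 1 fell, beside 8.83% and 10.1%. RPS6, the ribosomal protein that S6 kinases phosphorylate, measured 1848, 2130.3 and 2047 CPM in A375 with etoposide and 2684, 2688 and 2615 CPM with rapamycin added. It rose without overlap in A375 (log2 fold change 0.41, SE 0.050, adjusted p = 8.32e-05) and in SK-MEL-28 (0.51, SE 0.041, adjusted p = 2.95e-06). EIF4B, an eIF4A cofactor and S6 kinase target, rose by 0.35 (adjusted p = 6.58e-05) and 0.51 (adjusted p = 4.15e-06), and ULK1, the autophagy-initiating kinase that mTORC1 restrains, by 0.42 (adjusted p = 4.42e-05) and 0.36 (adjusted p = 0.00227). MAF1, a repressor of RNA polymerase III, rose by 0.35 (adjusted p = 0.000283) and 0.25 (adjusted p = 0.00352). The calls of RPS6, EIF4B, ULK1 and MAF1 held when any library was left out. EIF4EBP3, the least known 4E-binding protein, had 7, 4 and 3 counts in A375 with etoposide and 17, 14 and 16 with rapamycin added, and 1 to 11 in SK-MEL-28. Its log2 fold change of 1.73 in A375 (SE 0.50, adjusted p = 0.0220) rests on those counts. It was lost in 5 of 6 fits that left out a library, all except that without etoposide replicate 1, at an adjusted p of 0.0552 to 0.0976.

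Of the genes for proteins that bring mTORC1 to the lysosome, 5 of 10 fell and 0 rose in A375, where 13.8% of all genes were lower, and in SK-MEL-28 1 of 10 fell, where 10.1% were. LAMTOR3, a subunit of the Ragulator complex, measured 28.3, 29.8 and 29.9 CPM in A375 with etoposide and 19.7, 19.7 and 18.1 CPM with rapamycin added. It fell without overlap (log2 fold change -0.61, SE 0.078, adjusted p = 0.000126), and stood at -0.19 in SK-MEL-28 (SE 0.074, adjusted p = 0.101). RRAGA, a Rag GTPase, fell in both lines, with log2 fold changes of -0.24 (adjusted p = 0.00206) and -0.26 (adjusted p = 0.00305). The others that fell in A375, named after their values were seen, were RRAGC (-0.49, adjusted p = 0.000219), LAMTOR5 (-0.31, adjusted p = 0.00696) and RRAGD (-0.27, adjusted p = 0.0338). The RRAGD call was lost without A375 etoposide replicate 2 (adjusted p = 0.113) or 3 (0.0737), or rapamycin replicate 1 (0.0995) or 2 (0.137).

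Of 8 complex partners and assembly factors, 2 rose in A375, where 14.3% of all genes were higher, and 1 in SK-MEL-28, where 8.83% were, and none fell. TELO2, part of the complex that stabilises mTOR and related kinases, measured 33.3, 31.9 and 33.7 CPM in A375 with etoposide and 52.3, 55.8 and 53.7 CPM with rapamycin added. TELO2 rose by 0.71 on the log2 scale in A375 (SE 0.057, adjusted p = 3.30e-06) and by 0.37 in SK-MEL-28 (SE 0.069, adjusted p = 0.00238), without overlap in either. Of 14 amino acid sensing genes 2 rose in A375, where 28.1% of all genes were called, and 1 rose and 1 fell in SK-MEL-28, where 19.0% were. WDR24, of the GATOR2 complex, rose by 0.47 in SK-MEL-28 (adjusted p = 0.00215) and by 0.24 in A375 (adjusted p = 0.0400), where the call was lost without etoposide replicate 2 (0.0759) or 3 (0.142) or rapamycin replicate 1 (0.125) or 3 (adjusted p = 0.115). CASTOR1, an arginine sensor, measured 3.66, 3.57 and 3.55 CPM in SK-MEL-28 with etoposide and 2.22, 1.71 and 1.01 CPM with rapamycin added, a log2 fold change of -1.13 (SE 0.25, adjusted p = 0.00728), and had -0.11 in A375 (adjusted p = 0.728).

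Of 6 mTORC2 substrates, 3 rose and 2 fell in A375, where 28.1% of all genes were called, and 2 rose in SK-MEL-28, where 19.0% were. Of 4 genes of the TSC complex and RHEBL1, 1 rose and 1 fell in A375, beside the same 28.1%, and 0 were called in SK-MEL-28, beside 19.0%. Of 8 cap-binding partners 1 fell in each line. The genes called in both lines that were not named by rule were AKT1, a kinase activated by mTORC2, which rose by 0.34 (adjusted p = 0.000291) and 0.20 (adjusted p = 0.0168), and EEF2K, the elongation factor 2 kinase, which fell by 0.23 (adjusted p = 0.0326) and 0.28 (adjusted p = 0.00361) on the log2 scale. The AKT1 call in SK-MEL-28 was lost without etoposide replicate 3 (adjusted p = 0.0600) or rapamycin replicate 3 (0.0910). The EEF2K call in A375 was lost without etoposide replicate 1 (adjusted p = 0.0813) or 2 (0.102) or rapamycin replicate 2 (0.0541) or 3 (0.123).

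**Figure D4:**
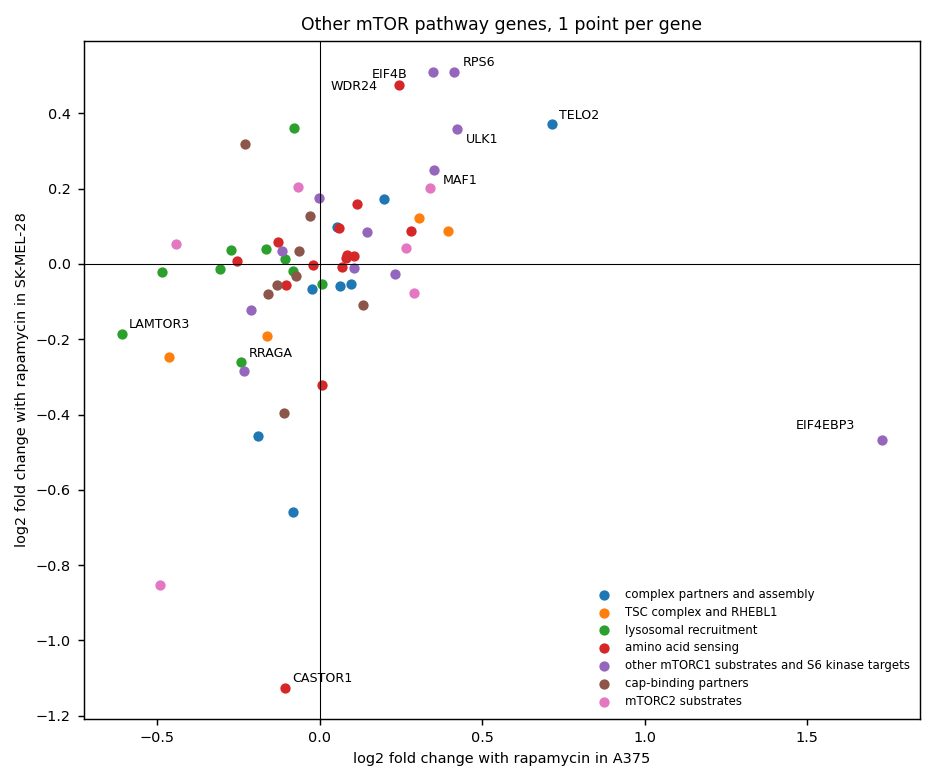
Log2 fold change with rapamycin in A375 (horizontal axis) and SK-MEL-28 (vertical axis) for the 62 other pathway genes, coloured by role, with the genes of the naming rule labelled. RPS6, EIF4B, ULK1 and TELO2 lie above 0 in both lines, LAMTOR3 and RRAGA below 0 in both, and EIF4EBP3 rests on 17 counts or fewer in any library.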

How the data were processed

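RNA from A375 and SK-MEL-28 cells was sequenced from polyA-enriched libraries, with 3 libraries per group. The authors aligned reads with HISAT2 to GRCh38 and estimated expression with StringTie, and they deposited raw counts per gene and library, neither normalized nor pooled. How coverage was converted to counts, and whether strand was used, is not given in the sources used here. No column was left unused. Counts in the 5 rows with no gene name, between 0.00099% and 0.0053% per library, were removed, and 58307 rows remained.

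Groups came from the sample titles. Tests used edgeR 4.0.16 in R 4.3.3 (filterByExpr with a minimum count of 10, TMM, glmQLFit, glmQLFTest) and p-values were adjusted by Benjamini-Hochberg across every gene tested. Each line was fitted alone, a fit of 12 libraries tested the difference of responses, and the etoposide libraries tested the lines. Standard errors are the size of each log2 fold change over the root of its F statistic. DESeq2 1.42.0, other scalings, other filters, a joint fit, the replicate number as a block, a 1.5-fold threshold and leaving out each library were alternatives. The fits were first tested on simulated counts with 200 genes changed 2-fold, a larger change than any member showed. By comparison, edgeR recovered 181 to 198 of them, with 11 to 22 false calls. Changes of the size seen in the members were not simulated. Replicates differed by more than counting noise (mean chi-square per gene 5.45 to 11.4). At 28189501 to 32499337 counts per library, precision averaged over genes was set more by the spread between replicates than by counting. Single genes could differ, and for EIF4EBP3, with 17 counts or fewer in any library, counting limited it too.

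The members and the gene lists were chosen with earlier results of these data known. Named were all 10 members, other pathway genes called with a change over 1.5-fold in a line, up to 6 more with the largest smaller change among those called in both lines, and for the 3 members most variable over the libraries the 3 genes of the most similar profile. Other genes were named after their values were seen, as stated there. Positions and exon lengths came from GENCODE release 44. The values of a few genes are not reported here.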

Additional observations from a re-analysis of the deposited data

Results flagged for a closer look

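The response to rapamycin differed between the lines, by the test of the difference itself (edgeR, Benjamini-Hochberg adjustment), for RPTOR among the members and for further pathway genes, where 5.62% of all genes were called. Each value is the log2 response in SK-MEL-28 minus that in A375. RPTOR had -0.35 (SE 0.086, adjusted p = 0.0270), from 0.23 in A375 and -0.12 in SK-MEL-28, and lost the call in 7 of 12 fits without a library, at an adjusted p of 0.0602 to 0.0821. TELO2 had -0.33 (SE 0.085, adjusted p = 0.0294), and both lines rose, by 0.71 and 0.37. Its call was lost in 7 of 12 such fits (adjusted p 0.0522 to 0.0855), those without A375 etoposide replicate 2, A375 rapamycin replicate 2 or 3, SK-MEL-28 etoposide replicate 2 or 3, or SK-MEL-28 rapamycin replicate 1 or 2. LAMTOR3 had 0.43 (SE 0.098, adjusted p = 0.0160), from -0.61 and -0.19, and lost the call without A375 etoposide replicate 3 (0.0552), A375 rapamycin replicate 3 (0.0532) or SK-MEL-28 etoposide replicate 2 (adjusted p = 0.0563).

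The genes that follow were named after their values were seen. SGK1, a kinase downstream of mTORC2, had 0.50 (SE 0.090, adjusted p = 0.00375), from -0.44 in A375 and 0.052 in SK-MEL-28. RRAGC, a Rag GTPase, had 0.47 (SE 0.098, adjusted p = 0.00975), from -0.49 and -0.022. PRKCA, a protein kinase C that mTORC2 phosphorylates, had -0.36 (SE 0.077, adjusted p = 0.0113), from 0.29 and -0.079. The calls of SGK1, RRAGC and PRKCA held in all 12 fits without a library. EIF4G1, the scaffold that binds eIF4E, had -0.24 (SE 0.063, adjusted p = 0.0370), from 0.13 and -0.11. Neither of these responses was called by edgeR, and both were called with DESeq2. The difference lost the call in 10 of 12 such fits (adjusted p 0.0547 to 0.0976). The exceptions were those without A375 etoposide replicate 1 or SK-MEL-28 etoposide replicate 1.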

How the results depend on the processing

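EIF4E and EIF4EBP2 in A375, and RHEB and RPS6KB2 between the lines, kept their call under each alternative run except a 1.5-fold threshold, which they did not reach. That threshold left 1109 genes called in A375, and 943 in the other line, 3 and 1 of the wider list, and 0 members in each comparison. Members called in SK-MEL-28 numbered 2 with DESeq2, a filter of 10 counts in every library or a joint fit, 3 with library totals and 0 with a filter of 1 count. That filter, which tests more genes, also left 0 members for the difference between the lines and 2 between the lines, and ended the calls of WDR24 (adjusted p = 0.0947), EEF2K (0.0917) and RRAGD (0.0784) in A375 and the differences of TELO2 (0.0616) and EIF4G1 (0.0658). Library totals ended that of WDR24 in A375 (adjusted p = 0.0858), and the joint fit that of EIF4EBP3 in A375 (0.0535), for which DESeq2 gave no adjusted p. CASTOR1 (adjusted p = 0.0421) and EIF4B (0.0249) were called for the difference with DESeq2. With 1 library left out, members called ranged from 2 to 5 in A375, 0 to 1 in SK-MEL-28, 0 to 2 for the difference and 2 to 4 between the lines. Genes called ranged from 3886 to 5231 and from 2432 to 3103, and wider pathway genes from 18 to 27 and from 11 to 13. The cause was not tested.

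Values near 0 changed sign. RICTOR in SK-MEL-28 was -0.0021 with DESeq2, -0.0006 with RLE size factors, -0.034 with library totals, -0.0032 with the filter of 10 counts and -0.04 to 0.042 with a library left out. With library totals MLST8 was -0.0069 and RPS6KB1 -0.021 in SK-MEL-28. With a library left out, MLST8 ranged from -0.0068 to 0.056, RPS6KB1 from -0.0046 to 0.032, RHEB from -0.042 to 0.006, RRAGC from -0.074 to 0.032, RRAGD from -0.0064 to 0.079, LAMTOR5 from -0.093 to 0.099 and EIF4EBP3 from -1.2 to 0.047 there, CASTOR1 from -0.22 to 0.15 in A375, and the differences between the lines of EIF4EBP1 from -0.012 to 0.13 and of RRAGA from -0.061 to 0.0094. The within-library ratios of EIF4EBP1 and EIF4EBP2 to EIF4E in SK-MEL-28 ranged from -0.051 to 0.11 and from -0.06 to 0.2.

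No pairing of the libraries by replicate number was seen. Deviations of same-numbered libraries correlated at -0.159 to -0.0418 in A375, -0.162 to 0.00562 in SK-MEL-28 and 0.0222 to 0.0939 between the lines. In no comparison did every library correlate best with its own number. With 3 libraries in a group, each centred on the group mean, such correlations cannot settle whether the numbers pair the libraries. With the replicate block 4480 genes were called in A375 and 3363 in SK-MEL-28, with 4, 2, 1 and 5 members in A375, SK-MEL-28, the difference and between the lines, and 21 and 14 wider genes. EIF4EBP1 in SK-MEL-28 (adjusted p = 0.0296) and MTOR between the lines (0.0171) were called with it, and WDR24 (0.0561) and RRAGD (0.0577) in A375 were not. RICTOR in SK-MEL-28 was -7.9e-05.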

Other observations

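EIF4E, EIF4EBP1 and EIF4EBP2 varied most over the 12 libraries, with an SD of log2 CPM of 0.219, 0.153 and 0.132. Profiles were compared with 12712 genes of at least 100 counts on average, by the root mean square difference of log2 CPM centred on each gene's mean, as a description with libraries and depth in common. The nearest genes were picked over the same libraries that form the treatment groups. A like response to rapamycin therefore follows from the choice and is no separate result. Nearest to EIF4E were STXBP3 (0.0584), CTAGE5 (0.0652) and PAIP2 (0.0720), where a flat profile would lie at 0.210. PAIP2 encodes an inhibitor of the poly(A)-binding protein, and it fell in A375 (log2 fold change -0.36, adjusted p = 0.000291) and SK-MEL-28 (-0.23, adjusted p = 0.0328) by edgeR. STXBP3 and CTAGE5 fell in A375 (adjusted p = 0.000264 and 0.00228) and were not called in SK-MEL-28 (0.287 and 0.223). Nearest to EIF4EBP1 were DNAJC1 (0.0681), RTL8A (0.0720) and C1orf52 (0.0735), with a flat profile at 0.146. None of these was called in either line. Nearest to EIF4EBP2 were PI4K2A (0.0515), ARFGEF2 (0.0529) and GSK3B (0.0553), with a flat profile at 0.126. By edgeR ARFGEF2 fell in A375 (adjusted p = 0.00796) and SK-MEL-28 (0.0148). PI4K2A (adjusted p = 0.0161) and GSK3B (0.0144) fell in A375 and were not called in SK-MEL-28.

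Rows named after a pseudogene or antisense transcript of a member held few counts. The largest against its member was RHEBP2, with 11 to 25 counts per library, 0.748% of those of RHEB, followed by RHEBP1 at 0.698%. EIF4EP2 and EIF4EP1 held 0.550% and 0.413% of the counts of EIF4E. The row AC005702.1, which shares a locus identifier with RPS6KB1, held 0.904% of its counts. BRICD5, which overlaps MLST8 on the opposite strand, held 20 to 77 counts per library.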
